A study of Mus musculus with 24 samples.

Results

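The branched-chain amino acids leucine, isoleucine and valine are broken down in mitochondria, and 10 genes of that route were followed across the mouse kidney libraries of an ischemia reperfusion experiment. They are Bcat2, Bckdha, Bckdhb, Ivd, Mccc1, Auh, Hibadh, Pcca, Pccb and Mut, a gene also named Mmut. The genes were picked by name from a count table of 55416 gene IDs, with earlier results of these same libraries in view. Their group differences are therefore given as a description, without p-values. Each of the 10 names was found once in the table, and each passed the filter that left 17430 genes (10 or more normalized counts in 6 or more libraries).

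RNA came from whole kidneys in 4 groups of 6 libraries, which cross the surgery with the genotype of Polg. The groups are sham Polg+/+, sham PolgD257A, B-IRI Polg+/+ and B-IRI PolgD257A, where B-IRI is the labels' name for the injury arm. Polg encodes the catalytic subunit of the polymerase that copies mitochondrial DNA, and the D257A change removes its proofreading. The design text calls the animals of both genotypes littermates. Whether PolgD257A animals were heterozygous or homozygous, and their strain, sex, age and time of sampling, the sources used here do not say. The labels call the 6 libraries of a group biological replicates without naming animals, so that p-values measure the spread between these libraries.

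As background, the route opens with a transamination that turns each amino acid into a branched keto acid. The branched-chain keto acid dehydrogenase complex then commits the carbon skeleton to breakdown, and it is switched off by a kinase (Bckdk) and on by a phosphatase (Ppm1k). Leucine carbon leaves as acetyl-CoA and ketone bodies, valine and isoleucine carbon passes through propionyl-CoA into the citric acid cycle, and inherited loss of single steps causes maple syrup urine disease, isovaleric acidemia, propionic acidemia or methylmalonic acidemia. The proximal tubule of the kidney is rich in mitochondria and expresses these enzymes.

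Library depth was 16689284 to 26341004 assigned reads. Proximal tubule markers checked the tissue label. None of 18 was at 0 in all 24 libraries, and their summed level in sham libraries was 1009755 to 1344753 normalized counts. After B-IRI that sum was 652687 to 824852 in Polg+/+ and 369039 to 575429 in PolgD257A. Injured tubule markers moved the other way, from 20544 to 28649 in sham libraries up to 69184 to 225295 and 224055 to 431565 in the B-IRI groups. Adipocyte markers, a sign of fat around the kidney, summed to 16.9 to 3668 normalized counts and were highest in sham Polg+/+ replicates 5 and 3. Skeletal muscle, another tissue with much Bcat2, was near absent, with sums of 9.5 to 28.7 over 6 markers. In whole tissue, fewer cells of a type and less RNA per cell cannot be told apart, and this holds for every difference that follows. Polg mRNA differed between the genotypes by log2 -0.02 in sham and 0.08 after B-IRI (limma over all genes, adjusted p = 0.95 and 0.16), and since D257A is a codon change, mRNA level is no check of genotype here.

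In uninjured kidneys the 10 enzymes were expressed at unequal levels that did not follow their order in the route. Per kilobase of exon, sham Polg+/+ libraries held the most mRNA of Pccb, at 3397 ± 216 normalized counts (SD, n = 6), followed by Ivd at 2206 ± 128 and Mut at 1887 ± 98.0. Bckdha (1165 ± 36.9) and Hibadh (1145 ± 57.7) came next, then Pcca (841 ± 43.0), Bckdhb (712 ± 71.7) and Bcat2 (556 ± 55.6). Mccc1 (441 ± 25.1) and Auh (252 ± 10.3) were lowest. The library ranges of neighbours in this order overlapped for Ivd and Mut, Bckdha and Hibadh, Pcca and Bckdhb, and Bckdhb and Bcat2, so those pairs are not ordered beyond their spread. Exon lengths are those of GENCODE M21 on GRCm38, an annotation that differs from the one behind the counts. A length takes in every base of any annotated exon of a gene. It was 10952 for Mccc1, 10179 for Hibadh and 9580 for Auh, against 1805 for Bckdhb and 1899 for Bckdha. Without division by length, mean counts were 4828 for Mccc1 and 2416 for Auh, above Bckdhb at 1286. Ivd (12145) was then above Pccb (9413). The order therefore depends on the lengths used.

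The mutation alone went with almost no difference in these genes. Between sham PolgD257A and sham Polg+/+ libraries the 10 differences ran from log2 -0.04 (Mut) to 0.04 (Pccb), with a median of -0.02 beside 0.01 over all genes tested. None of the 10 passed the limma threshold of adjusted p 0.05, and none had an unadjusted p under 0.05 by limma, edgeR or DESeq2. Over all genes this comparison called 0.126%, so that a count of 0 is also the common outcome. For each of the 10 the sham groups overlapped, as they did for most genes (PolgD257A lay wholly below Polg+/+ for 0.252% and wholly above for 0.379% of all genes).

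After B-IRI each of the 10 mRNAs was lower than in sham kidneys of the same genotype, and lower in PolgD257A than in Polg+/+. In Polg+/+ all 10 passed the threshold downwards, against 19.8% of all genes called lower, with a median difference of log2 -0.52 (-0.01 over all genes). In PolgD257A all 10 did so as well, against 30.3% of all genes, with a median of -0.90 (-0.001 over all genes). Between the injured groups all 10 were lower in PolgD257A, against 15.2% of all genes, at a median of -0.44. The interaction term, which measures how much further a gene moved in PolgD257A than in Polg+/+, was below 0 for all 10 and past the threshold, against 9.08% of all genes called lower, with a median of -0.41. The members were chosen with these comparisons known, and the comparisons share libraries with each other. Every library of 1 group lay below every library of the other for 8 of the 10 on B-IRI in Polg+/+ (8.7% of all genes), for 10 in PolgD257A (17.5%) and for 8 between the injured groups (5.94%).

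**Figure D1:**
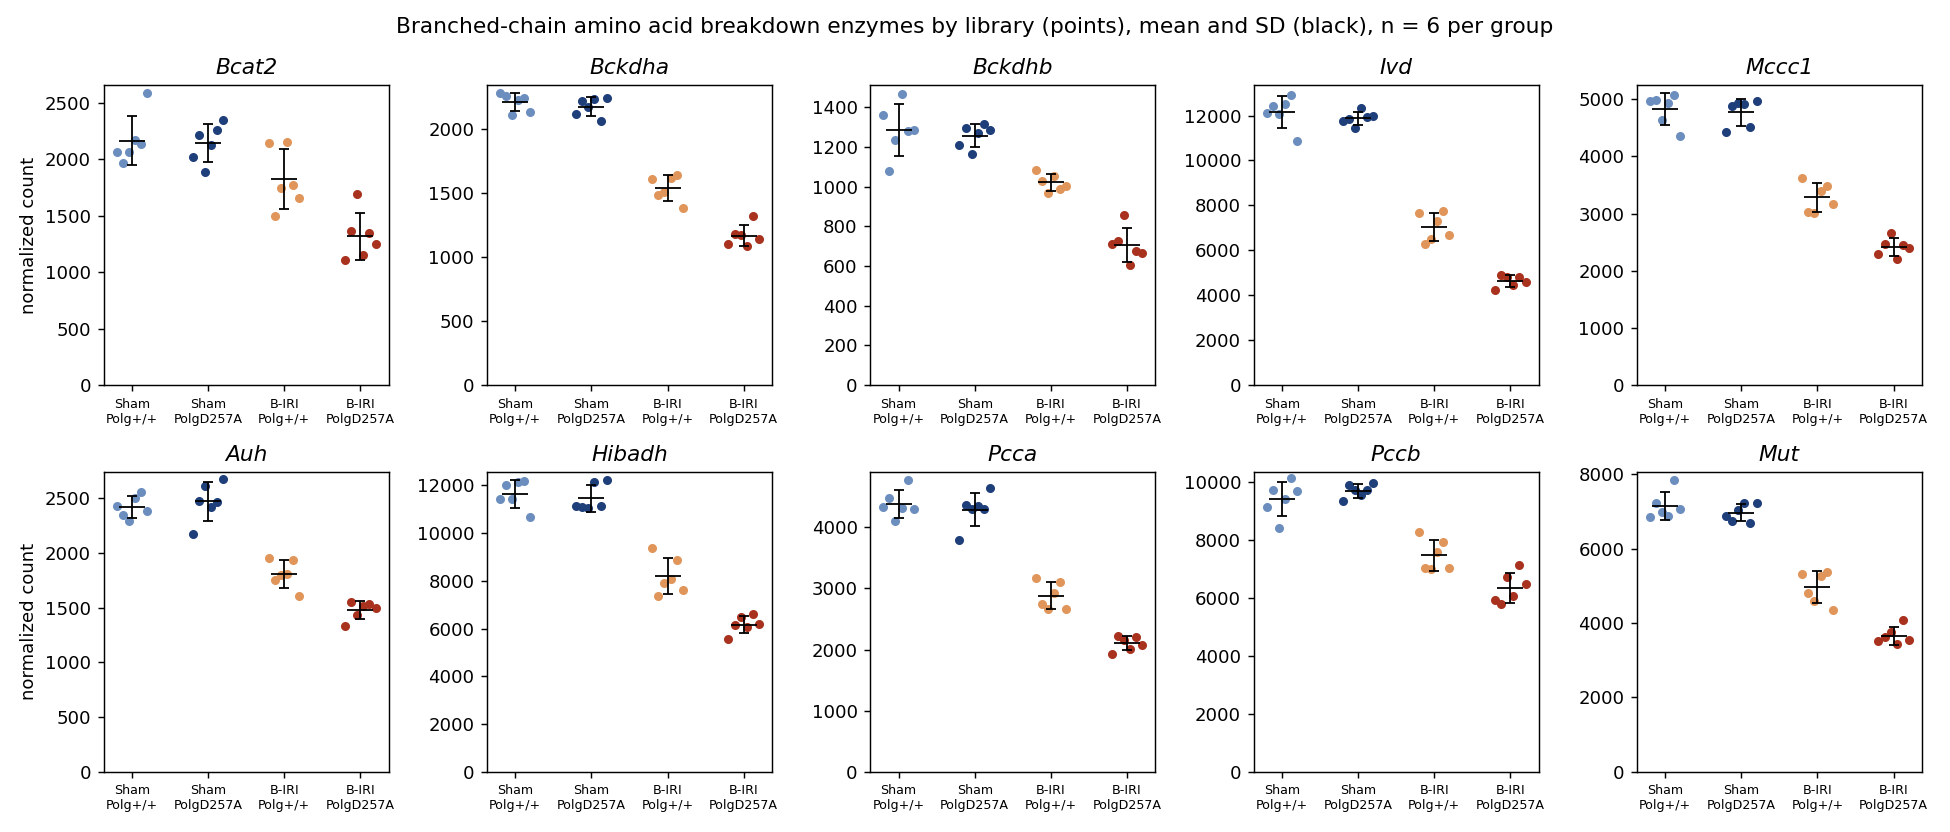
Normalized counts of the 10 enzymes (vertical axis, from 0) in each of the 24 libraries, by group (horizontal axis); points are libraries and black bars give the mean and SD of 6. In each panel the sham groups lie together and B-IRI PolgD257A has the lowest mean, with overlap between the injured groups only for Bcat2 and Pccb.

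The stretches just before the start sites of the 10 genes were also read. The RefSeq promoter table (GRCm38.p6) matched 9 of the 10 genes (not Mut), with 12 windows. The letters CCAAT, the core of the box bound by the nuclear factor Y complex, were present on either strand in the 250 bases before the start in 6 of 12 windows, against 33.8% of 32851 windows in the table. At least 2 copies stood in 3 of 12 windows, against 10.1% of all. The GC box GGGCGG was present in 5 of 12 (32.7% of all), with at least 2 copies in 4 (16.7% of all), and the TATA box TATAAA in 0 of 12 (12.4% of all). The site AAGGTCA of estrogen-related receptors (4.1% of all windows), the cAMP element TGACGTCA (1.5%) and the E-box CACGTG (6.0%) had no match in the 12 windows. In the 29 windows of the other pathway genes, CCAAT was present in 16 and at least 2 copies in 6, and the GC box in 16 and 8. A match is a description of the letters, and so small a set of windows is not tested against the rest.

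The following windows are shown for the letters CCAAT, which are in capitals (ATTGG where the box lies on the other strand). They are the bases before the start that fall outside annotated exons, 5′ to 3′ on the gene's strand. Ivd and Mccc1, of consecutive steps of leucine breakdown, carry several copies, Hibadh and Pcca carry 1 each, and Pccb, the partner of Pcca, has none. Of the genes not shown, Bcat2, Bckdha and Auh have no copy in the 250 bases, and Bckdhb has 2 in 1 window and 0 in the other. Pcca has another window, not shown, that also holds 1 copy. After B-IRI the genotype difference was log2 -0.47 for Bcat2, -0.40 for Bckdha, -0.29 for Auh and -0.24 for Pccb, all with no copy. It was -0.41 for Hibadh and -0.45 for Pcca, -0.60 for Ivd and -0.44 for Mccc1, and -0.54 for Bckdhb. A relation between copies and differences was not tested.
Ivd (chr2:118861744-118861953, plus strand): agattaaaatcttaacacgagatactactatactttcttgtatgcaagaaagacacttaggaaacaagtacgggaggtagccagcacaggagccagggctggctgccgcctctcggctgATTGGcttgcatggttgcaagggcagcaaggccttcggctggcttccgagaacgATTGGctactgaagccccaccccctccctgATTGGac
Mccc1 (chr3:36000712-36000928, minus strand): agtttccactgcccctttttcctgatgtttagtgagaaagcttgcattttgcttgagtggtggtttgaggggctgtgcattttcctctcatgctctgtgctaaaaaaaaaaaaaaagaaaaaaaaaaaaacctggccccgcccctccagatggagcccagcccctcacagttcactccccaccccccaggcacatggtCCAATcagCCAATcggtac
Hibadh (chr6:52640390-52640550, minus strand): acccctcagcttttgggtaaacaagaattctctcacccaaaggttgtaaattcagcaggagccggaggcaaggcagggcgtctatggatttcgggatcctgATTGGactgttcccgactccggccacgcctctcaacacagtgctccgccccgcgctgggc
Pcca (chr14:122534078-122534323, plus strand): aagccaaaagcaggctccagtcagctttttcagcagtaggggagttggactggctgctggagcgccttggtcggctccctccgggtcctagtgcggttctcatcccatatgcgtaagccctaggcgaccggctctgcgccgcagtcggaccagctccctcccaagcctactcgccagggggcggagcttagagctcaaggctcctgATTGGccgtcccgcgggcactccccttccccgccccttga
Pccb (chr9:101034899-101035134, minus strand): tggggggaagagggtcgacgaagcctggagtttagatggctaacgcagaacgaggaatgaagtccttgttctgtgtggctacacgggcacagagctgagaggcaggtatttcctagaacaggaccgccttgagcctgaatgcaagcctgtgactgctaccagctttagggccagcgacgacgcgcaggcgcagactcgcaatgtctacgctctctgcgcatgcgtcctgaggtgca

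Bcat2 encodes the mitochondrial transaminase of the opening step, on chromosome 7 (45570153 to 45589711, plus strand). It held 1971 to 2587 normalized counts (median 2102) in Polg+/+ and 1890 to 2350 (2173) in PolgD257A sham libraries, and after B-IRI 1497 to 2154 (1760) and 1111 to 1695 (1298) in these genotypes. Its libraries overlapped between sham and B-IRI in Polg+/+ and between the injured groups, and only in PolgD257A did every B-IRI library lie below every sham library. The difference on B-IRI was log2 -0.25 ± 0.09 in Polg+/+ (limma SE), the smallest of the 10, and -0.71 ± 0.09 in PolgD257A, and the genotype difference after B-IRI was -0.47 ± 0.09. Sham Polg+/+ replicate 6, at 2587, stood above the other 5 (1971 to 2175), and without it the difference in Polg+/+ was -0.20 and no longer past the threshold. The adipocyte marker sum of that library was 596, against 3212 and 3668 in replicates 3 and 5, whose Bcat2 was 2066 and 2134. Without B-IRI Polg+/+ replicate 2, 3, 5 or 6 the difference in Polg+/+ also missed the threshold (-0.20 to -0.25).

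Bckdha and Bckdhb encode the alpha and beta subunits of the decarboxylase at the front of the keto acid dehydrogenase complex. Bckdha (chromosome 7, 25629946 to 25658981, minus strand) held 2114 to 2288 normalized counts (median 2239) in Polg+/+ and 2062 to 2246 (2198) in PolgD257A sham libraries, and after B-IRI 1388 to 1647 (1561) and 1089 to 1319 (1155) in these genotypes. Bckdhb (chromosome 9, 83925145 to 84124240, plus strand) held 1081 to 1470 (1282), 1164 to 1314 (1278), 969 to 1084 (1015) and 604 to 857 (694) in the same order of groups. For Bckdha the sham, B-IRI Polg+/+ and B-IRI PolgD257A libraries formed separate ranges, while for Bckdhb 1 sham Polg+/+ library reached into the B-IRI Polg+/+ range. On B-IRI, Bckdha was lower by log2 -0.52 ± 0.05 in Polg+/+ and -0.90 ± 0.05 in PolgD257A, and Bckdhb by -0.33 ± 0.07 and -0.84 ± 0.07. Between the injured groups Bckdhb differed more (-0.54 ± 0.07) than Bckdha (-0.40 ± 0.05), without a test of that gap. Bcat2 and Bckdha share chromosome 7 with Polg and lie 33.9 and 53.8 megabases from it, and their sham genotype differences were -0.01 and -0.02.

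The leucine branch holds 3 of the 10 genes, and it holds the largest difference. Ivd (chromosome 2, 118861954 to 118882909, plus strand) encodes isovaleryl-CoA dehydrogenase, the step that is lost in isovaleric acidemia. It held 10847 to 12930 normalized counts (median 12261) in Polg+/+ and 11452 to 12350 (11891) in PolgD257A sham libraries, and after B-IRI 6295 to 7737 (7001) and 4238 to 4907 (4699) in these genotypes. The sham groups overlapped, and the injured groups were apart from them and from each other. Ivd was 1.73-fold lower on B-IRI in Polg+/+ (log2 -0.79 ± 0.05) and 2.56-fold lower in PolgD257A (-1.36 ± 0.05), and after B-IRI it was 1.51-fold lower in PolgD257A than in Polg+/+ (-0.60 ± 0.05). The authors' deposited table of selected genes was read as PolgD257A against Polg+/+ after B-IRI. It listed Ivd at log2 -0.591 (SE 0.054, s-value 2e-28) and Bckdhb at -0.516 (SE 0.072, s-value 3.5e-14). The other 8 genes are not in the authors' deposited table, whose smallest absolute log2 fold change is 0.5.

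Mccc1 (chromosome 3, 35959312 to 36000678, minus strand) encodes the biotin-carrying subunit of methylcrotonyl-CoA carboxylase, the step after Ivd. It held 4356 to 5080 normalized counts (median 4954) in Polg+/+ and 4428 to 4962 (4900) in PolgD257A sham libraries, and after B-IRI 3008 to 3617 (3280) and 2198 to 2662 (2419) in these genotypes. Auh (chromosome 13, 52835119 to 52929681, minus strand) encodes the hydratase that follows, a protein that also binds AU-rich RNA. It held 2287 to 2550 (2406), 2167 to 2673 (2471), 1601 to 1950 (1803) and 1330 to 1547 (1502) in the same order. For both genes the 3 levels, sham, B-IRI Polg+/+ and B-IRI PolgD257A, did not overlap, although the highest Auh library of B-IRI PolgD257A (1547) came close to the lowest of B-IRI Polg+/+ (1601). On B-IRI the differences were log2 -0.56 ± 0.05 and -0.99 ± 0.05 for Mccc1 and -0.42 ± 0.05 and -0.74 ± 0.05 for Auh, in Polg+/+ and PolgD257A. After B-IRI the genotype difference was -0.44 ± 0.05 for Mccc1 and -0.29 ± 0.05 for Auh.

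Hibadh (chromosome 6, 52546228 to 52640389, minus strand) encodes 3-hydroxyisobutyrate dehydrogenase, an enzyme of the valine branch. It held 10674 to 12186 normalized counts (median 11736) in Polg+/+ and 11044 to 12229 (11135) in PolgD257A sham libraries, and after B-IRI 7363 to 9383 (7996) and 5584 to 6592 (6160) in these genotypes. The injured groups stood apart from the sham groups and from each other. Hibadh was lower on B-IRI by log2 -0.51 ± 0.06 in Polg+/+ and -0.90 ± 0.06 in PolgD257A, close to the medians of the 10, and the genotype difference after B-IRI was -0.41 ± 0.06.

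At the propionate end, Pcca and Pccb encode the subunits of propionyl-CoA carboxylase and Mut encodes methylmalonyl-CoA mutase, the cobalamin-dependent enzyme that delivers succinyl-CoA to the citric acid cycle. Pcca (chromosome 14, 122534324 to 122891100, plus strand) held 4102 to 4769 normalized counts (median 4323) in Polg+/+ and 3794 to 4635 (4329) in PolgD257A sham libraries, and after B-IRI 2657 to 3171 (2842) and 1933 to 2229 (2117) in these genotypes. Pccb (chromosome 9, 100982032 to 101034898, minus strand) held 8392 to 10133 (9547), 9328 to 9962 (9708), 7009 to 8261 (7306) and 5776 to 7138 (6264). Pcca libraries were apart in all 3 comparisons that involve injury, whereas the highest Pccb library of B-IRI PolgD257A overlapped the B-IRI Polg+/+ range. Pcca was lower on B-IRI by log2 -0.61 ± 0.05 and -1.03 ± 0.05 in Polg+/+ and PolgD257A, and Pccb by -0.33 ± 0.06 and -0.61 ± 0.06. After B-IRI the genotype difference was -0.45 ± 0.05 for Pcca and -0.24 ± 0.06 for Pccb, the smallest of the 10.

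Mut (chromosome 17, 40934685 to 40961988, plus strand) held 6852 to 7848 normalized counts (median 7031) in Polg+/+ and 6692 to 7216 (6955) in PolgD257A sham libraries, and after B-IRI 4363 to 5377 (5036) and 3428 to 4074 (3578) in these genotypes. No library of an injured group reached the next group above. Mut was lower on B-IRI by log2 -0.53 ± 0.05 in Polg+/+ and -0.93 ± 0.05 in PolgD257A, and the genotype difference after B-IRI was -0.44 ± 0.05.

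Of the 10 genes, Bcat2, Bckdha, Mccc1, Pcca and Mut share exon bases with a gene on the opposite strand in GENCODE M21, namely 0610005C13Rik, B3gnt8, a set that includes Mccc1os, Ggact and Cenpq. Hibadh overlaps Gm24355 on its own strand. The sources used here do not say if counting used the strand, so these 6 levels may hold reads of the partner. Ivd, Bckdhb, Auh and Pccb have no such overlap, and their differences on B-IRI in PolgD257A ran from log2 -0.61 to -1.36, against -0.71 to -1.03 for the 6 that do.

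The rest of the route was followed in 28 genes that were not among the 10, from a list also written with earlier results known. These genes carry tests, with adjusted p-values from limma over 17430 genes. On B-IRI in Polg+/+, 20 of 28 fell and none rose (median log2 -0.29), and in PolgD257A, 23 fell and 1 rose (median -0.67). Between the injured groups 19 were lower in PolgD257A and none higher (median -0.33), and the interaction was past the threshold for 15, all below 0 (median -0.31). Over all genes, 19.8% were called lower on B-IRI in Polg+/+ and 30.3% in PolgD257A. Between the injured groups 15.2% of all genes were called lower, and for the interaction 9.08%. In sham none of the 28 passed between the genotypes, nor did any have an unadjusted p under 0.05 by limma, edgeR or DESeq2, and the differences ran from -0.14 (Ppm1k) to 0.42 (Bcat1, adjusted p = 0.79).

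**Figure D2:**
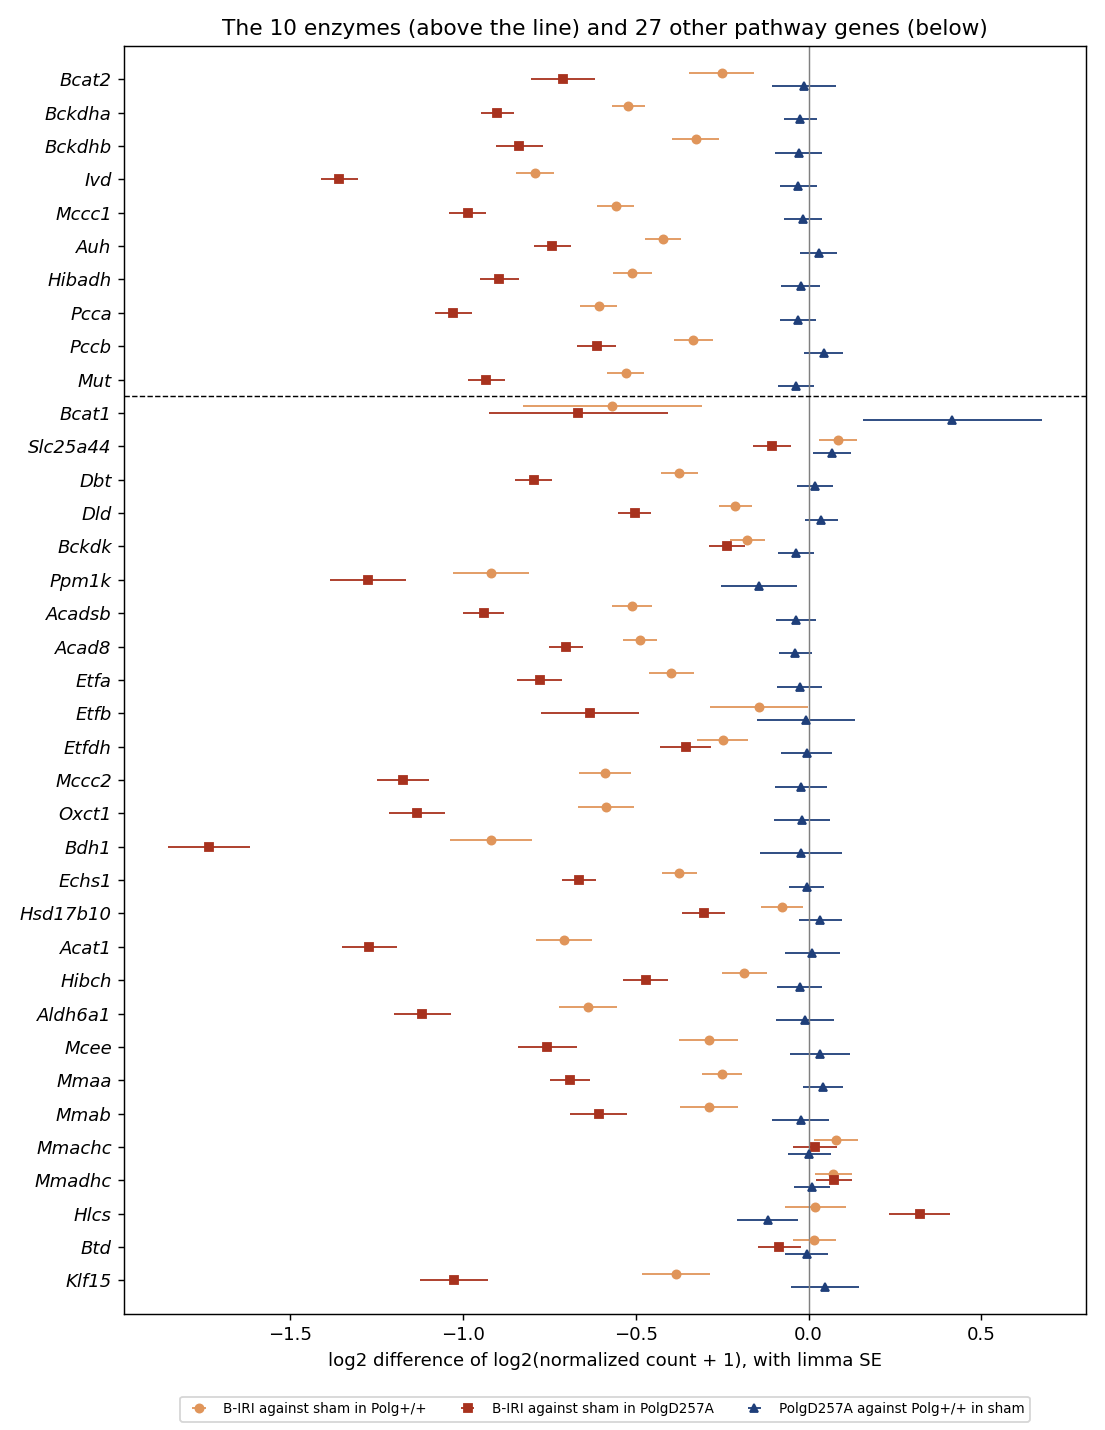
Log2 differences (horizontal axis) with limma SE for the 10 enzymes above the dashed line and 27 of the 28 other genes of the route below it (vertical axis). Circles give B-IRI against sham in Polg+/+, squares the same in PolgD257A, and triangles PolgD257A against Polg+/+ in sham; the triangles lie between -0.14 and 0.07 except for Bcat1 at 0.42, while the squares lie left of the circles for all 10 enzymes.

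The remaining subunits of the keto acid dehydrogenase complex fell on B-IRI in both genotypes. Dbt, the transacylase core on which the complex is built, held 3148 to 3722 normalized counts (median 3329) in Polg+/+ and 3030 to 3543 (3458) in PolgD257A sham libraries, and after B-IRI 2386 to 2778 (2574) and 1843 to 2196 (1931) in these genotypes. It was lower by log2 -0.37 ± 0.05 on B-IRI in Polg+/+ (adjusted p = 3.3e-06) and by -0.80 ± 0.05 in PolgD257A (adjusted p = 1.5e-12), with an interaction of -0.42 ± 0.08 (adjusted p = 0.0006). Dld, the dihydrolipoyl dehydrogenase that this complex shares with pyruvate dehydrogenase, fell by -0.21 ± 0.05 and -0.50 ± 0.05 (interaction -0.29 ± 0.07, adjusted p = 0.0044). All structural subunits of the complex were lower after B-IRI in both genotypes, with Dbt and Dld passing a test and Bckdha and Bckdhb given as description.

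The switch of the complex held more kinase mRNA per phosphatase mRNA after injury. Ppm1k, the phosphatase that activates the complex, held 500 to 710 normalized counts (median 596) in Polg+/+ and 484 to 638 (511) in PolgD257A sham libraries, and after B-IRI 268 to 383 (300) and 181 to 273 (222) in these genotypes. It fell 1.89-fold on B-IRI in Polg+/+ (log2 -0.92 ± 0.11, adjusted p = 2.8e-07) and 2.42-fold in PolgD257A (-1.27 ± 0.11, adjusted p = 1.8e-10). Bckdk, the kinase that inactivates the complex, held 1623 to 1744 (1667), 1549 to 1826 (1570), 1388 to 1665 (1468) and 1294 to 1578 (1347) in the same order of groups. It fell 1.13-fold and 1.18-fold on B-IRI (log2 -0.18 ± 0.05, adjusted p = 0.0076, and -0.24 ± 0.05, adjusted p = 0.0003). After B-IRI, Ppm1k was lower in PolgD257A (-0.50 ± 0.11, adjusted p = 0.0011), while Bckdk did not pass (-0.10 ± 0.05, adjusted p = 0.17), except without B-IRI PolgD257A replicate 3 (-0.13, adjusted p = 0.04). Neither interaction passed (Ppm1k -0.36 ± 0.16, adjusted p = 0.12, and Bckdk -0.06 ± 0.07, adjusted p = 0.64).

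The log2 ratio of Bckdk to Ppm1k counts per library was 1.49 ± 0.20 (SD, n = 6) in Polg+/+ and 1.60 ± 0.17 in PolgD257A sham libraries, and after B-IRI 2.24 ± 0.17 and 2.64 ± 0.21 in these genotypes, which is 2.82, 3.03, 4.72 and 6.24 kinase counts per phosphatase count. Counts are not corrected for gene length here, so that only the change of the ratio between groups is read. Its ranges were 1.19 to 1.73, 1.28 to 1.77, 1.96 to 2.40 and 2.41 to 2.89, so that the sham groups overlapped and the injured groups did not. The ratio was higher on B-IRI by 0.74 in Polg+/+ and by 1.04 in PolgD257A, and higher in PolgD257A than in Polg+/+ after B-IRI by 0.41. For each of these 3 comparisons the exact two-sided permutation p was 0.002165, the smallest that relabeling 6 against 6 libraries can give (adjusted p = 0.00289 over 4 tests). In sham the genotypes differed by 0.11 (exact permutation p = 0.3506, adjusted p = 0.351).

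**Figure D3:**
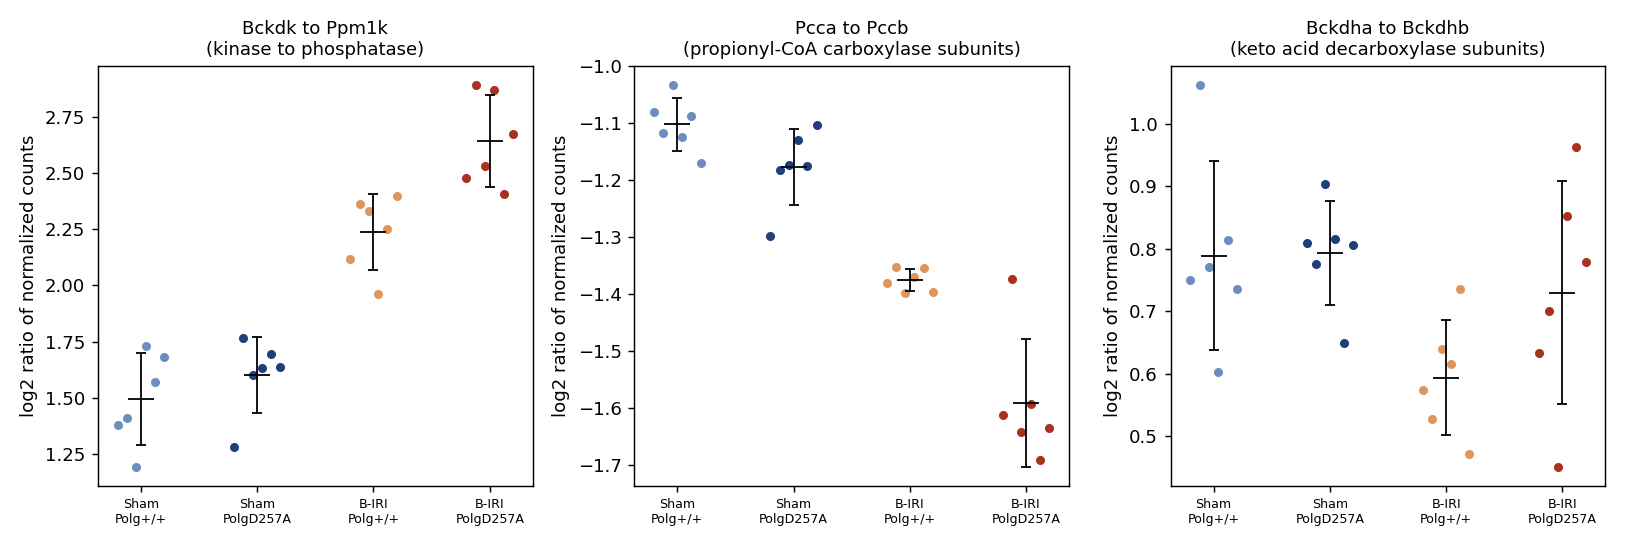
Log2 ratios of normalized counts (vertical axes, not from 0) of 3 gene pairs in each library by group (horizontal axis), with the mean and SD of 6. Bckdk to Ppm1k lies higher in both injured groups, Pcca to Pccb lies lower, and Bckdha to Bckdhb overlaps across groups.

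Subunits that work in 1 enzyme did not always keep their mRNA ratio, and these ratios are given as description. The log2 ratio of Pcca to Pccb ran from -1.17 to -1.03 in Polg+/+ and -1.30 to -1.10 in PolgD257A sham libraries, and after B-IRI from -1.40 to -1.35 and -1.69 to -1.37. Both injured groups lay below both sham groups, and the injured groups overlapped through 1 PolgD257A library. The ratio of Bckdha to Bckdhb overlapped across all groups, with means of 0.79, 0.79, 0.59 and 0.73 in the same order. The ratio of Mccc1 to Mccc2, its partner subunit, was 0.98, 0.99, 1.01 and 1.17 on average. Mccc2, which carries a test, changed by log2 -0.59 ± 0.07 and -1.17 ± 0.07 on B-IRI (adjusted p = 7.5e-07 and 7.8e-13), with an interaction of -0.58 ± 0.11 (adjusted p = 0.00075).

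Ahead of the complex stand a cytosolic transaminase and a mitochondrial carrier. Bcat1, the cytosolic transaminase, varied widely between libraries, with 758 to 2118 normalized counts (median 1544) in Polg+/+ and 1292 to 2289 (2039) in PolgD257A sham libraries, and after B-IRI 568 to 1983 (931) and 730 to 1577 (1223) in these genotypes. Its difference on B-IRI was log2 -0.57 ± 0.26 in Polg+/+ (adjusted p = 0.081) and -0.67 ± 0.26 in PolgD257A (adjusted p = 0.028). Leaving out B-IRI Polg+/+ replicate 6 or sham Polg+/+ replicate 6 brought the call in Polg+/+ past the threshold (-0.78, adjusted p = 0.013, and -0.75, adjusted p = 0.018). Leaving out B-IRI PolgD257A replicate 4 or sham PolgD257A replicate 2, 4 or 5 ended the call in PolgD257A (adjusted p = 0.052 to 0.087). Sham Polg+/+ replicate 6 held the highest Bcat2 (2587) and the lowest Bcat1 (758) of its group, and B-IRI Polg+/+ replicates 1 and 4 held high Bcat2 (2147 and 2154) with low Bcat1 (568 and 663). In B-IRI PolgD257A, by contrast, replicate 3 was high in both Bcat2 (1695.1) and Bcat1 (1562.5). Replicate 4 of that group was low in both (1154.7 and 729.6). A relation between these genes was not tested. Slc25a44, which encodes a mitochondrial carrier of branched-chain amino acids, passed in no comparison of all libraries (0.09 ± 0.06 and -0.11 ± 0.06 on B-IRI, adjusted p = 0.22 and 0.099). Without B-IRI PolgD257A replicate 5 it did pass, at -0.15 on B-IRI in PolgD257A (adjusted p = 0.017), -0.16 between the injured groups (adjusted p = 0.019) and -0.23 for the interaction (adjusted p = 0.027). On B-IRI in PolgD257A it also passed without sham PolgD257A replicate 6 (-0.13, adjusted p = 0.049), and for the interaction without sham Polg+/+ replicate 2 (adjusted p = 0.044).

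Among the acyl-CoA dehydrogenases, Acadsb of the isoleucine branch changed by log2 -0.51 ± 0.06 in Polg+/+ (adjusted p = 1.3e-07) and -0.94 ± 0.06 in PolgD257A (adjusted p = 4.2e-13). Acad8 of the valine branch changed by -0.49 ± 0.05 and -0.70 ± 0.05 (adjusted p = 2e-08 and 4.1e-12). Together with the flavoproteins that take their electrons (Etfa, Etfb and Etfdh), 4 of 5 genes were called lower in Polg+/+ and all 5 in PolgD257A, and Etfb was the exception (-0.14 ± 0.14, adjusted p = 0.45, in Polg+/+). After B-IRI, 4 of the 5 were lower in PolgD257A, and Etfdh did not pass (-0.11 ± 0.07, adjusted p = 0.27). The interaction of Acadsb was -0.43 ± 0.08 (adjusted p = 0.0011).

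Where leucine carbon leaves as ketone bodies, Bdh1 and Oxct1 fell on B-IRI in both genotypes. Bdh1, which interconverts acetoacetate and 3-hydroxybutyrate, held 4712 to 5821 normalized counts (median 4766) in Polg+/+ and 4236 to 5541 (4906) in PolgD257A sham libraries, and after B-IRI 2414 to 3152 (2513) and 1123 to 2340 (1463) in these genotypes. It fell 1.89-fold in Polg+/+ (log2 -0.92 ± 0.12, adjusted p = 7.5e-07) and 3.33-fold in PolgD257A (-1.74 ± 0.12, adjusted p = 2e-12), with an interaction of -0.82 ± 0.17 (adjusted p = 0.0017). Oxct1, which activates ketone bodies for use as fuel, changed by -0.59 ± 0.08 and -1.13 ± 0.08. After B-IRI, Mccc2, Oxct1 and Bdh1 were lower in PolgD257A.

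In the isoleucine and valine branches 4 of 5 genes fell in Polg+/+ and all 5 in PolgD257A. Acat1, the mitochondrial thiolase that ends isoleucine breakdown, went from 23098 to 27573 normalized counts (median 25212) in sham Polg+/+ to 14268 to 18779 (14962) in B-IRI Polg+/+, and from 23225 to 29111 (25458) in sham PolgD257A to 8425 to 11857 (11156) in B-IRI PolgD257A. Its differences were log2 -0.71 ± 0.08 (adjusted p = 1.1e-07) and -1.27 ± 0.08 (adjusted p = 5.5e-13), with an interaction of -0.56 ± 0.11 (adjusted p = 0.0016). Aldh6a1, the methylmalonate semialdehyde dehydrogenase of the valine branch, changed by -0.64 ± 0.08 and -1.12 ± 0.08 (adjusted p = 9.6e-07 and 1.1e-11). Hibch, the hydrolase just before Hibadh, changed by -0.19 ± 0.07 and -0.47 ± 0.07 (adjusted p = 0.026 and 8.4e-07), and its call in Polg+/+ was lost without B-IRI Polg+/+ replicate 6 or sham Polg+/+ replicate 1, 4 or 5 (-0.15 to -0.17, adjusted p = 0.054 to 0.076). Hsd17b10 did not pass in Polg+/+ (-0.08 ± 0.06, adjusted p = 0.34).

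Outside the 10 genes, 7 genes stand at the propionate end and in its supply of cofactors, and 3 of them fell in both genotypes. Mcee, the epimerase between propionyl-CoA carboxylase and Mut, changed by log2 -0.29 ± 0.09 and -0.76 ± 0.09 on B-IRI, and Mmaa, which protects the cobalamin of Mut, by -0.25 ± 0.06 and -0.69 ± 0.06 (adjusted p = 0.001 and 1e-10). Mmab, which makes the adenosylcobalamin that Mut uses, changed by -0.29 ± 0.08 and -0.61 ± 0.08. Genes that process cobalamin and biotin for other enzymes as well were not called lower. Mmachc (0.08 and 0.02), Mmadhc (0.07 and 0.07) and the biotin recycling gene Btd (0.02 and -0.09) passed in neither genotype, with SEs of 0.05 to 0.06. Hlcs, the ligase that attaches biotin to Pcca and Mccc1, passed upwards in PolgD257A (0.32 ± 0.09, adjusted p = 0.0026) and not in Polg+/+ (0.02 ± 0.09, adjusted p = 0.89), and its interaction did not pass (0.30 ± 0.12, adjusted p = 0.10), except without B-IRI PolgD257A replicate 2 (0.37, adjusted p = 0.025).

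Klf15, a transcription factor known to induce branched-chain amino acid breakdown in muscle and heart, held 1802 to 2411 normalized counts (median 2165) in Polg+/+ and 2036 to 2305 (2238) in PolgD257A sham libraries, and after B-IRI 1381 to 1912 (1673) and 907 to 1490 (1025) in these genotypes. It fell 1.30-fold in Polg+/+ (log2 -0.38 ± 0.10, adjusted p = 0.0027) and 2.04-fold in PolgD257A (-1.03 ± 0.10, adjusted p = 1.2e-09). Its interaction was -0.64 ± 0.14 (adjusted p = 0.0026), and after B-IRI it was lower in PolgD257A (-0.60 ± 0.10, adjusted p = 5.3e-05), with overlapping libraries.

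Carriers that bring branched-chain amino acids into cells went both ways: of 6, 2 rose and 2 fell on B-IRI in each genotype, and Slc7a8 was past the threshold in no comparison. Over all genes, 19.8% were called lower in Polg+/+ and 30.3% in PolgD257A. With 1 library left out, 6335 to 7319 and 10119 to 10588 of 17430 genes were called in either direction. The counts of carriers are therefore not read as particular to them. Slc7a5, the catalytic chain of the LAT1 exchanger, rose from 71.9 to 93.3 normalized counts (median 84.6) in sham Polg+/+ to 99.3 to 185 (152) in B-IRI Polg+/+, and from 76.7 to 100.2 (92.6) in sham PolgD257A to 188 to 300 (235) in B-IRI PolgD257A. Within each genotype the injured libraries were above every sham library, and the injured groups were apart from each other, with differences of log2 0.81 ± 0.13 (adjusted p = 2.4e-05), 1.38 ± 0.13 (adjusted p = 1.4e-09) and, between the injured groups, 0.68 ± 0.13 (adjusted p = 0.00034). Slc3a2, the heavy chain of the same exchanger, rose by 0.28 ± 0.10 (adjusted p = 0.028) and 0.49 ± 0.10 (adjusted p = 0.00017), and the call in Polg+/+ was lost without B-IRI Polg+/+ replicate 4 or sham Polg+/+ replicate 1, 3 or 4. Slc6a19, the carrier of neutral amino acids in the proximal tubule brush border, changed by -0.78 ± 0.16 (adjusted p = 0.00024) and -0.80 ± 0.16 (adjusted p = 7.1e-05), and its genotype difference after B-IRI did not pass (-0.22 ± 0.16, adjusted p = 0.31). Slc43a1 fell in Polg+/+ (-0.93 ± 0.22, adjusted p = 0.0012) and Slc43a2 in PolgD257A (-0.40 ± 0.10, adjusted p = 0.0013), but neither interaction passed (adjusted p = 0.36 and 0.27). Slc43a1 also passed in PolgD257A under 10 of 34 alternatives, among them without B-IRI PolgD257A replicate 2 or 3 or sham PolgD257A replicate 1, 2 or 3 (-0.53 to -0.62).

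Lists of neighbouring pathways give the scale of these differences. On B-IRI in Polg+/+ and PolgD257A the median of 15 fatty acid oxidation genes was log2 -0.19 and -0.27, that of 17 citric acid cycle genes -0.20 and -0.51, and that of 18 proximal tubule markers -0.58 and -1.20, beside -0.52 and -0.90 for the 10 enzymes. Between the injured groups the medians were -0.11, -0.28 and -0.63, beside -0.44. The 10 enzymes lay between the citric acid cycle list and the tubule markers in each of these comparisons. After B-IRI, 17 of 17 citric acid cycle genes but 4 of 15 fatty acid oxidation genes were lower in PolgD257A, against 15.2% of all genes. Proximal tubule markers were called lower on B-IRI for 13 of 18 in Polg+/+ and 18 of 18 in PolgD257A (19.8% and 30.3% of all genes). Of 7 thick ascending limb markers, 2 were called lower and 1 higher on B-IRI in Polg+/+, and 6 lower in PolgD257A. Between the injured groups 7 of 7 of these and 8 of 10 distal and collecting duct markers were lower in PolgD257A (medians of log2 -0.72 and -0.49). Fibroblast marker sums went from 3751 to 5299 normalized counts in sham libraries to 6327 to 14225 and 12251 to 20614 in the injured groups. On B-IRI, 5 of these 7 markers were called higher and 1 lower in Polg+/+, and 6 higher and 1 lower in PolgD257A. Dcn was the lowest of them (log2 -0.57 and -0.53). Macrophage and monocyte marker sums were 2788 to 3603 in sham, and after B-IRI 2429 to 4071 in Polg+/+ and 3266 to 4641 in PolgD257A. In each genotype 5 of these 9 markers were called higher on B-IRI and 1 lower, and Csf1r was the lowest (log2 -0.74 and -1.15). Calls on B-IRI were common over all genes. With 1 library left out, 6335 to 7319 of 17430 were called in either direction in Polg+/+, and 10119 to 10588 in PolgD257A. The part of these cell type shifts in the values of the 10 enzymes was not tested.

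Within a group the libraries differed, and the levels of the injury marker Havcr1, which encodes KIM-1, are given beside those of the 10 enzymes. In B-IRI Polg+/+ replicates 1 to 6, Havcr1 held 5441, 18946, 17435, 7005, 12211 and 24888 normalized counts. The median of the 10 enzymes, as a log2 difference from the sham Polg+/+ mean, was -0.36, -0.57, -0.55, -0.44, -0.40 and -0.61 in the same order, so that replicate 6 held the most Havcr1 and the lowest median and replicate 1 the least Havcr1 and the highest median. In B-IRI PolgD257A replicates 1 to 6, Havcr1 held 36062, 35712, 33059, 34450, 25923 and 26493, and the median was -1.01, -0.91, -0.85, -1.04, -0.81 and -0.95. There the range of Havcr1 was narrower, and replicate 5 held the least Havcr1 and the highest median. The Havcr1 ranges of the injured groups did not overlap, so that genotype and injury level cannot be told apart in these libraries. Lrp2, which encodes the endocytic receptor megalin of the proximal tubule, fell in Polg+/+ (-0.41 ± 0.11, adjusted p = 0.004) and in PolgD257A (-1.06 ± 0.11, adjusted p = 6.1e-09).

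**Figure D4:**
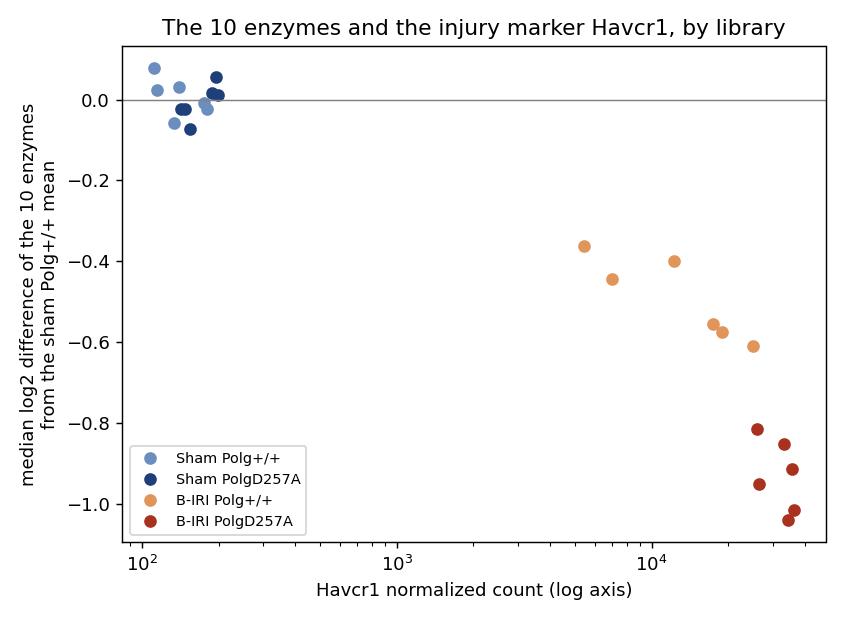
Median log2 difference of the 10 enzymes from the sham Polg+/+ mean (vertical axis) against the Havcr1 normalized count (horizontal axis, log scale), 1 point per library. Sham libraries lie near 0 on the left, B-IRI Polg+/+ libraries spread from 5441 to 24888 Havcr1 counts, and B-IRI PolgD257A libraries sit lowest at 25923 to 36062.

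The genes whose profile was closest to the 10 enzymes were sought among 10749 others, by the mean absolute log2 difference from the members' median profile over the 24 libraries. Genes of any list used here were not candidates. This left out the rest of the route, the uptake carriers, the neighbouring pathways and all cell type markers, those of the proximal tubule included. Also left out were IDs without a symbol, names of the Gm, Rik and -ps kinds, and genes that averaged under 100 normalized counts. Among the candidates the closest were Scp2 (0.0522), Scrn3 (0.0573), Pyroxd2 (0.0576), Smpdl3a (0.0586), Herc4 (0.0644) and Akr7a5 (0.0649). The median over all candidates was 0.417. Within the route, Acadsb stood at 0.058, closer than Smpdl3a, Herc4 and Akr7a5. Etfa stood at 0.071 and Acad8 at 0.077, and the rest of the 28 genes ran from 0.095 (Dbt) to 0.555 (Bcat1). Scp2, the sterol carrier protein gene that also yields a peroxisomal thiolase, stood after B-IRI at log2 -0.46 from the sham Polg+/+ mean in Polg+/+ and at -0.91 in PolgD257A.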

How the data were processed

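RNA from 24 kidney libraries, 6 per group, was extracted with RNeasy kits, and libraries were made with a NEBNext Ultra II kit, per the labels' protocols. FastQC, STAR, SAMtools, featureCounts and DESeq2 and the build GRCm38.p6 are named in the submitters' processing notes, without versions. The values in the deposited count table are a signal, each gene's count divided by the authors with a factor for that library (0.740 to 1.31). Multiplying by that factor gave whole reads for 100% of values within 0.001. A deposited table of the authors' own comparison gives a mean signal, a log2 fold change with its SE, and an s-value, a p-value-like measure of a wrong sign. The groups that it compares and their direction were read from its name and the sign of its values. Its 1345 genes that were also tested here all share the sign of PolgD257A against Polg+/+ after B-IRI. Since the sign was used in that reading, the shared sign is no separate check of it. In the column names, Ctrl was read as Polg+/+, Mut as PolgD257A and SurgBIR as B-IRI, an inference on which every comparison rests.

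The 17430 genes with 10 or more normalized counts in 6 or more libraries were fitted on log2(normalized count + 1) with limma-trend (limma 3.58.1, R 4.3.3), using group means and all 24 libraries, Benjamini-Hochberg adjustment and a threshold of 0.05. The pseudocount of 1 understates changes of low genes, and the SE is pooled over groups. The ratio of Bckdk to Ppm1k was compared by exact permutation of the libraries. Models were tested on simulated counts. The members, the gene lists and the tests were chosen with earlier results of these data known. Named pathway genes are Bcat1, Slc25a44, Dbt, Dld, Bckdk, Ppm1k, Mccc2, Aldh6a1, Hibch, Acadsb and Klf15 in every comparison, and the 3 with the smallest adjusted p in each direction. Others of the 28, and the transporters, were named after their values were seen, and 1 of the 28 is counted but not reported here. Symbols, exon lengths and locations come from GENCODE M21 on GRCm38, which held 52083 (93.99%) of the 55416 IDs. Only 35 had the same ID version, so the authors used another annotation. Also tried were a pseudocount of 0.5 or 5, a filter of 50 or none, TMM scaling, quantile normalization, library weights, only the libraries compared, a replicate block, edgeR 4.0.16 and DESeq2 1.42.0 on the recovered reads, and leaving out each library in turn. Python 3.11.15 with pandas 2.3.3 and Matplotlib 3.10.9 did the rest. No 2 libraries of a group held the same counts within sampling noise (chi-square per degree of freedom of at least 3.85).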

Additional observations from a re-analysis of the deposited data

Results flagged for a closer look

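Among the 10 enzymes and 11 other genes of the route, 84 groups of 6 libraries were searched for a library that stands apart from the rest, and 9 had one, where chance gives about 1 in 20. Of the 10 enzymes, Bcat2 was high in sham Polg+/+ replicate 6 (2586.7 normalized counts, next 2174.7) and Mut in sham Polg+/+ replicate 5 (7847.9, next 7222.7). B-IRI PolgD257A replicate 3 stood above its group in Dbt (2196.4) and Dld (7596.1), and replicate 5 of that group in Slc25a44 (1271.9). Sham PolgD257A replicate 2 was low in Dbt (3029.6) and Klf15 (2036.0). B-IRI PolgD257A replicate 2 was low in Hibch (952.7), and B-IRI Polg+/+ replicate 1 was high in Bckdk (1664.6).

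The response to B-IRI differed between the genotypes for 15 of the 28 other genes by the limma interaction, each with a further drop in PolgD257A. Of all genes, 9.08% were called lower for this term. The log2 interaction and its adjusted p were -0.422 (0.0006) for Dbt, -0.292 (0.0044) for Dld, -0.429 (0.0011) for Acadsb, -0.215 (0.036) for Acad8, -0.382 (0.0059) for Etfa and -0.584 (0.00075) for Mccc2. They were -0.547 (0.0022) for Oxct1, -0.818 (0.0017) for Bdh1, -0.29 (0.0069) for Echs1, -0.564 (0.0016) for Acat1 and -0.286 (0.038) for Hibch. For Aldh6a1 they were -0.48 (0.0068), for Mcee -0.467 (0.01), for Mmaa -0.438 (0.00088) and for Klf15 -0.644 (0.0026). In 6 of 6 B-IRI PolgD257A libraries Dbt, Dld, Acadsb, Acad8, Etfa, Mccc2, Oxct1, Bdh1, Echs1, Acat1, Hibch, Mcee and Mmaa were below every B-IRI Polg+/+ library, and Aldh6a1 and Klf15 overlapped. Such a separation held for 5.94% of all genes. The calls of Acad8 and Hibch were lost under 14 and 12 of 34 alternatives.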

How the results depend on the processing

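In the injury comparisons, between the injured groups and for the interaction, the members' median kept its sign under every alternative, and the counts of members and pathway genes stayed within 1.5 times. With each library left out in turn the median ran from log2 -0.54 to -0.49 on B-IRI in Polg+/+, -0.93 to -0.88 in PolgD257A, -0.46 to -0.42 between the injured groups and -0.44 to -0.39 for the interaction. Bcat2 missed the threshold on B-IRI in Polg+/+ without a filter (-0.25), under the replicate block (-0.25), and without sham Polg+/+ replicate 6 (-0.20) or B-IRI Polg+/+ replicate 2 (-0.20), 3 (-0.24), 5 (-0.25) or 6 (-0.23). Pccb missed it for the interaction under quantile normalization (-0.17). The 22 genes called between the sham genotypes became 43 with DESeq2, 55 with library weights and 37 with only the libraries compared. Differences near 0 changed sign, in sham for Dbt with library weights (-0.005) and quantile normalization (-0.008) and for Dld with the latter (-0.001). With single libraries left out the sham difference ran from -0.04 to 0.015 for Aldh6a1 (0.014 among these), -0.0 to 0.05 for Dbt, -0.002 to 0.082 for Klf15 and -0.071 to 0.02 for Hibch, and the interaction of Bcat1 from -0.252 to 0.108 (0.046 and 0.085 among these). The causes were not tested. Over 36 same-numbered pairs of libraries the correlation of their deviations ran from -0.326 to 0.174, and 2 were over 0.1. In 2 pairs each library matched best with its own number. Expression thus gave little sign of pairing by replicate number, but it cannot show that there was none. With the replicate number as a block 6835 genes were called on B-IRI in Polg+/+, and in the interaction Acad8, Hibch (adjusted p = 0.052) and Slc7a5 were no longer called, while Slc43a1 on B-IRI in PolgD257A was. The call of Slc7a5 there was lost under 15 of 34 alternatives and that of Oxct1 under quantile normalization. Depth limits the low genes most, here Slc43a1 (group means of 19.1 to 36.6 normalized counts).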
